A study of Homo sapiens with 6 samples.

Results

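Transcripts of 8 genes of epithelial cell junctions and of luminal epithelium, CLDN7, OCLN, TJP3, PKP2, GATA3, AGR2, KRT7 and TSPAN8, were followed in MDA-MB-231 cells. The 8 genes were chosen from earlier results of these same arrays, with their differences between the siRNAs known, so their values are given as a description and are not tested. They are 8 of 14884 genes with a named probe set, each was measured by 1 probe set, and all 8 were among the 10640 genes bright enough to enter the fit. MDA-MB-231 is an established human line of triple-negative breast cancer whose p53 is mutated. The cells received 1 of 3 small interfering RNAs by lipofection, siATM against the kinase ATM, sip53 against p53 or the control siNC, and total RNA from 2 samples of each was hybridised to 6 Affymetrix Human Gene 2.0 ST arrays. All 3 groups therefore share the line, the serum-containing medium and the transfection reagent, and no untransfected cells were included. The labels give neither the time after transfection nor whether the 2 samples of a group were separate cultures, so the errors and p-values below measure only how far these samples differ from each other, which may be technical spread. The levels of the ATM and p53 transcripts, and so how far each was lowered, were not analysed here.

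Epithelial cells are held together by tight junctions, adherens junctions and desmosomes. Claudins and occludin are membrane proteins that seal the space between neighbouring cells, TJP3 is a scaffold that ties them to actin, and plakophilins such as PKP2 link desmosomal cadherins to keratin filaments through desmoplakin. In the mammary gland the cells that line the lumen are set apart from the outer basal layer by factors such as GATA3, by keratins of simple epithelium such as KRT7, and by secretory products that depend on proteins such as AGR2. MDA-MB-231 has a mesenchymal-like shape and is usually placed with the basal, claudin-low breast lines.

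Promoter sequences were printed for 5 of the 8 genes to show what lies ahead of genes whose levels separated the 3 siRNAs (CLDN7, TJP3, AGR2, TSPAN8) and of the junction gene that did not follow them (OCLN). Windows of 250 bases upstream of RefSeq transcript starts (GRCh38.p14) were found for 6 of the 8 genes. No window was found for PKP2 or KRT7. Capitals mark every match to a searched motif: the E-box bound by ZEB and SNAI repressors (CAGGTG or its reverse complement CACCTG), the GATA motif (AGATAA or TGATAA, or TTATCT or TTATCA on the other strand) and the forkhead motif (TGTTTAC or GTAAACA). The CLDN7 window is chr17:7262479-7262728 on the minus strand, the TJP3 window is chr19:3721487-3721736 on the plus strand, and the OCLN window is chr5:69492297-69492546 on the plus strand. The AGR2 window is chr7:16805000-16805249 on the minus strand, and the TSPAN8 window is chr12:71158000-71158249 on the minus strand.
CLDN7: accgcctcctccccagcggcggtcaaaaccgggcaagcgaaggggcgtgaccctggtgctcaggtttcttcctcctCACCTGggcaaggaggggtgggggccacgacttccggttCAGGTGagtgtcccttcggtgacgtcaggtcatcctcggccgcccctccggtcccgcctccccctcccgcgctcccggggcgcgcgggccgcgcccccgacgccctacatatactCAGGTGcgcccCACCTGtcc
TJP3: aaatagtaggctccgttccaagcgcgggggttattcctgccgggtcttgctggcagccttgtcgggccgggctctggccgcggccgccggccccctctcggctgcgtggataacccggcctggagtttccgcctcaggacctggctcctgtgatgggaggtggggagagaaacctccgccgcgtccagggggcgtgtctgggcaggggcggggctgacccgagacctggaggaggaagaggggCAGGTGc
OCLN: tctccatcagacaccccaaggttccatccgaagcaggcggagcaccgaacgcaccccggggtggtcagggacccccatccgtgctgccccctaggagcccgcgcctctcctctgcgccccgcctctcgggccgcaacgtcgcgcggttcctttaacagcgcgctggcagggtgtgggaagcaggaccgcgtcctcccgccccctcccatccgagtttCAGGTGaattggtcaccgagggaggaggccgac
AGR2: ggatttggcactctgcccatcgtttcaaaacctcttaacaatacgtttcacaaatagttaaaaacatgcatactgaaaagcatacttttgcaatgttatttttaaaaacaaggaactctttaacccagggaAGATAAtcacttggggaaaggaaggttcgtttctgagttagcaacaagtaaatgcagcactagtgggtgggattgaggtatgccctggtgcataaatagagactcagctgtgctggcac
TSPAN8: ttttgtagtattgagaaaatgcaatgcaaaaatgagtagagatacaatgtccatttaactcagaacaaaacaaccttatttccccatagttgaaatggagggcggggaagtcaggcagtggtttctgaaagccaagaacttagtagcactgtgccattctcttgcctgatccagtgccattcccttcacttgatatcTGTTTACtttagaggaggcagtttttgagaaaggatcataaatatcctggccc

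The CLDN7 window held 4 E-box matches, which begin 174, 135, 20 and 9 bases upstream of the start. At least 1 such match was present in 17.5% of all 35116 windows, at least 2 in 2.53% and at least 4 in 0.122%. The printed TJP3 and OCLN windows held 1 E-box match each. The second OCLN window also held 1, 133 bases upstream of its start, while the second CLDN7 window and the second TJP3 window held none. The AGR2 window held 1 GATA match, a motif present in 14.6% of all windows, and no E-box match. The printed TSPAN8 window held 1 forkhead match, a motif present in 2.98% of all windows. A second TSPAN8 window overlaps it and holds the same match, 243 bases upstream of its own start. The AGR2 window and the printed TSPAN8 window were poor in G and C, at 40.4% and 40.8%, against 71.2% in the printed CLDN7 window. Of the 6 GATA3 windows, 1 held a TATA-like match (TTTATA, the reverse complement of TATAAA, present in either form in 10.7% of all windows). No window of these 6 genes held the grainyhead motif AACCGGTT, which 0.117% of all windows held. A match is a run of letters in a window and was not tested as a binding site.

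Among the junction genes, CLDN7, TJP3 and PKP2 shared an order of group means, with siATM highest, siNC between and sip53 lowest. Values are log2 intensities as deposited, so a difference of 1 is a 2-fold difference. CLDN7, a claudin of simple epithelia, measured 10.01 and 9.99 on the siNC arrays, 10.57 and 10.62 after siATM, and 9.44 and 9.50 after sip53. Its 3 groups did not overlap. Its level was higher by 0.59 ± 0.06 (difference ± moderated SE, n = 2 per group; 1.51-fold) after siATM and lower after sip53 (difference −0.53 ± 0.06, 1.44-fold). The direct difference between siATM and sip53 was therefore 1.12 ± 0.06 (2.18-fold), rank 13 from the highest of the 10640 genes.

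TJP3 measured 6.97 and 6.99 after siNC, 7.62 and 7.30 after siATM, and 6.85 and 6.57 after sip53. The groups kept apart, but the 2 arrays of each knockdown lay further from each other than the 2 control arrays did. Its difference was 0.48 ± 0.12 after siATM, from 0.32 without siATM replicate 1 to 0.64 without siATM replicate 2. After sip53 it was −0.27 ± 0.12, from −0.41 without sip53 replicate 1 to −0.13 without sip53 replicate 2. That sip53 difference of TJP3 did not pass the threshold of the fit, an adjusted p below 0.05. The desmosomal PKP2 was more tightly measured, at 9.70 on both siNC arrays, 9.93 and 9.94 after siATM, and 9.40 and 9.34 after sip53. Its differences were 0.24 ± 0.06 (1.18-fold) and −0.33 ± 0.06 (1.26-fold), and its groups did not overlap.

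OCLN, which encodes occludin, did not share this order. It measured 8.06 and 8.28 after siNC, 8.08 and 8.06 after siATM, and 8.37 and 8.30 after sip53. The siATM arrays lay at the lower end of the siNC range. Both sip53 arrays lay above the higher siNC array by less than the gap between the 2 siNC arrays. Its difference was −0.10 ± 0.08 after siATM, between −0.21 and 0.0072 when each array was left out in turn. After sip53 it was 0.16 ± 0.08, from 0.05 without siNC replicate 1 to 0.27 without siNC replicate 2. A partial copy of the gene, OCLNP1, is annotated, and pseudogenes of PKP2 and CLDN7 exist too, so part of these signals may be shared with the copies.

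**Figure D1:**
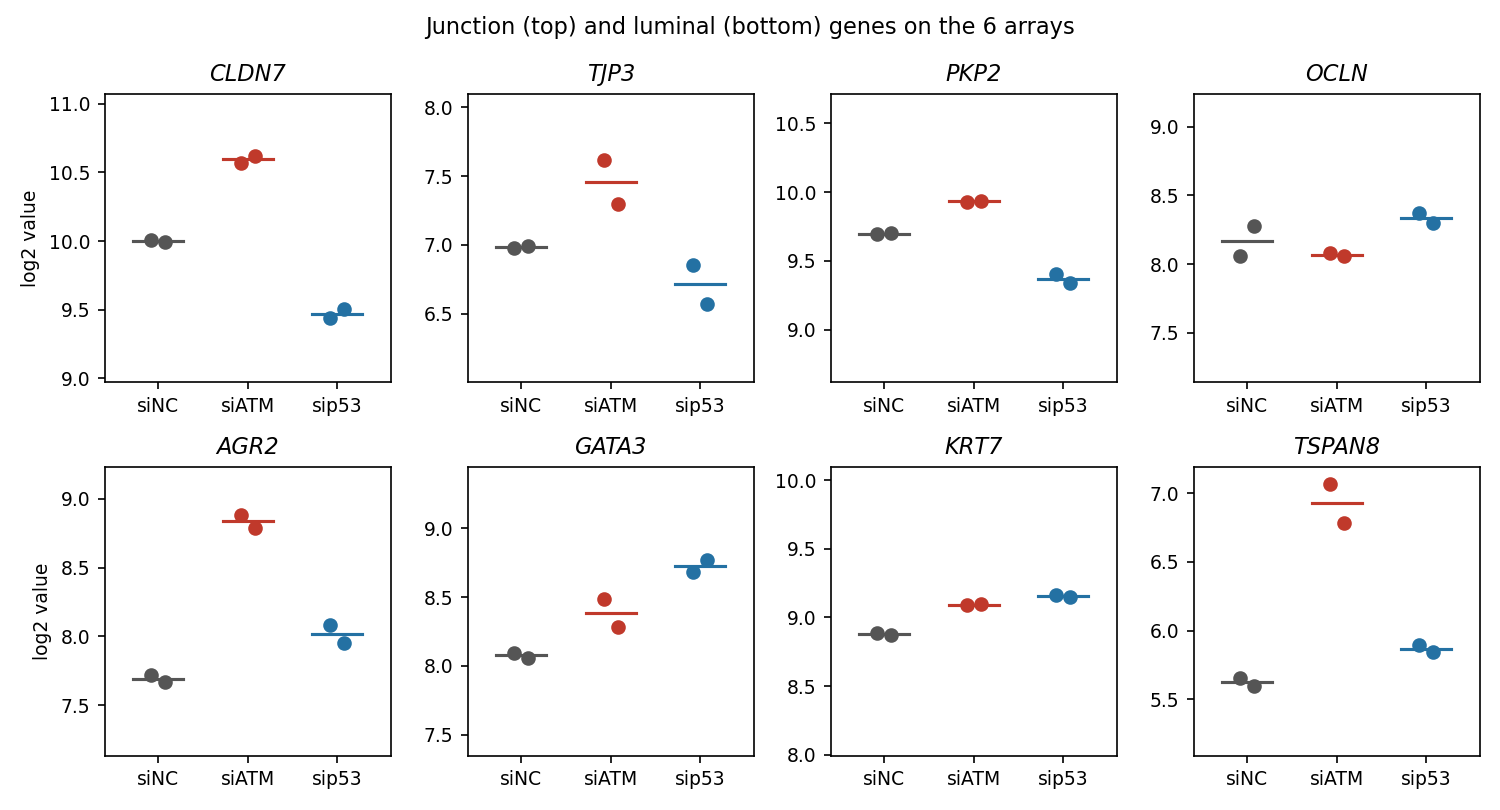
Log2 intensity of the 8 genes on each of the 6 arrays, by siRNA; each panel spans the same height of 2.1 log2 units, points are arrays and bars are group means of 2. CLDN7, TJP3 and PKP2 step down from siATM through siNC to sip53, AGR2 and TSPAN8 stand highest after siATM, and GATA3 stands highest after sip53.

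The luminal genes GATA3, KRT7 and AGR2 had higher means after both siRNAs than after siNC, and TSPAN8 stood apart from siNC mainly after siATM. GATA3, a transcription factor needed for luminal differentiation, measured 8.10 and 8.06 after siNC, 8.49 and 8.29 after siATM, and 8.68 and 8.77 after sip53. Its sip53 arrays were the highest and its siNC arrays the lowest, and its 3 groups did not overlap. Its differences were 0.31 ± 0.08 (1.24-fold) after siATM and 0.65 ± 0.08 (1.57-fold) after sip53, where it ranked 44 from the highest of all genes tested. KRT7, a type II keratin, measured 8.89 and 8.87, then 9.09 and 9.10 after siATM, then 9.17 and 9.15 after sip53. Its groups did not overlap, with standard deviations of 0.01, 0.0065 and 0.0089, and its differences were 0.21 ± 0.05 and 0.28 ± 0.05.

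AGR2, a protein disulfide isomerase family member that helps fold mucins in the endoplasmic reticulum, measured 7.72 and 7.67 after siNC, 8.88 and 8.79 after siATM, and 8.09 and 7.95 after sip53. The sip53 arrays lay between the other groups, which did not overlap them. Its differences were 1.14 ± 0.07 (2.21-fold) after siATM and 0.32 ± 0.07 (1.25-fold) after sip53. TSPAN8, a cell-surface tetraspanin, measured 5.66 and 5.59 after siNC, 7.07 and 6.78 after siATM, and 5.90 and 5.84 after sip53. Its difference in deposited values was 1.30 ± 0.09 after siATM and 0.24 ± 0.09 after sip53. The siNC and sip53 means of TSPAN8 lay below 5.96, the brightness limit of the fit, so it entered the fit only through its siATM arrays, its low values are near those of dim probe sets, and these differences are not exact folds. The sip53 difference of TSPAN8 did not pass the threshold of the fit. In these RNA pools a larger share of cells with a transcript and more transcript per cell cannot be told apart.

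**Figure D2:**
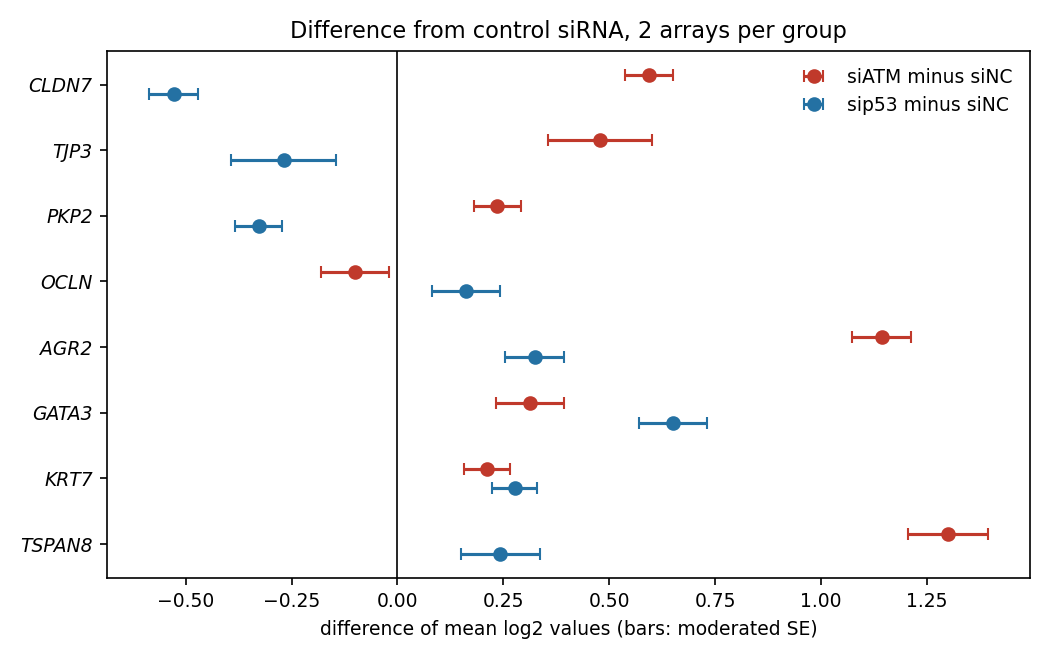
Difference of group mean log2 intensity for the 8 genes in siATM minus siNC and sip53 minus siNC; points are differences and bars are moderated standard errors from the limma fit of all 6 arrays. CLDN7 lies on opposite sides of 0 against siNC (0.59 and −0.53), and GATA3 is above 0 against siNC with both siRNAs.

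The comparisons of siATM and of sip53 with siNC share their control arrays, so the direct comparison of siATM with sip53 is given beside them. In it CLDN7 (1.12), TSPAN8 (1.06 ± 0.09), AGR2 (0.82 ± 0.07), TJP3 (0.75 ± 0.12) and PKP2 (0.56 ± 0.06) were higher after siATM. GATA3 (−0.34 ± 0.08) and OCLN (−0.26 ± 0.08) were lower after siATM than after sip53, and KRT7 differed by −0.07 ± 0.05. In the limma fit over all genes with Benjamini-Hochberg adjustment, 7 of the 8 were past an adjusted p of 0.05 and higher after siATM than after siNC, where 12.5% of all genes tested were higher and 13.0% lower. For sip53 against siNC, AGR2, GATA3 and KRT7 were past it and higher and CLDN7 and PKP2 were past it and lower, where 5.47% of all genes were higher (582) and 5.11% lower (544; with each array centred on its median, 410 higher and 668 lower). For siATM against sip53, 5 were higher and 2 lower (OCLN and GATA3), where 14% of all genes were higher and 16.3% lower. Since the genes were picked on these contrasts, the counts describe the choice and nothing is read from them.

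These counts rested on few arrays, and the genes were picked on these contrasts, so calls kept with an array left out test nothing. For siATM the calls of TJP3, PKP2, GATA3 and KRT7 were lost when single arrays were left out. For sip53 those of PKP2, AGR2 and KRT7 were lost. The siATM difference ran in these fits from 0.57 to 0.62 for CLDN7, 1.10 to 1.19 for AGR2 and 1.16 to 1.44 for TSPAN8. The sip53 difference ran from −0.56 to −0.50 for CLDN7 and from 0.61 to 0.70 for GATA3. TSPAN8 entered the fit only through its siATM arrays, so nothing is read from its call. Centring each array on its median left 5 higher and 1 lower in siATM against sip53, OCLN no longer being past the threshold. In that comparison OCLN was also lost with no brightness filter and without any 1 siATM or sip53 array. GATA3 was lost there without siATM replicate 2 or sip53 replicate 2. With each array left out in turn, their differences ran from −0.30 to −0.23 for OCLN and from −0.44 to −0.24 for GATA3.

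The other genes of the junction and luminal lists did not share one direction. Of 150 further genes in the tight junction, desmosome, adherens junction, keratin and luminal lists, 119 were measured and 69 bright enough to test. After siATM 7 of them (10.1%) rose and 10 (14.5%) fell, beside 12.5% and 13.0% of all genes, with a median difference of −0.05 against −0.00062 over all genes. After sip53 none rose and 6 (8.70%) fell, beside 5.47% and 5.11%, with a median of −0.03 against 0.01. With unadjusted p below 0.05 in the same limma fit, 6 were higher and 14 lower after sip53. Between siATM and sip53, 10 (14.5%) were higher and 7 (10.1%) lower after siATM, with a median of 0.05 against −0.01. The number of list genes past the threshold for siATM, 17, was 7 (4 higher and 3 lower) when siNC replicate 1 was left out and 10 (5 and 5) when siNC replicate 2 was. Its balance also turned with the filter at the 70th percentile, where 12 of 40 tested list genes were higher and 7 lower, and with trend and robust moderation, where 13 of 69 were higher and 11 lower. For siATM against sip53 the balance turned to 3 higher and 4 lower without sip53 replicate 1, 5 and 7 without siATM replicate 2, and 5 and 6 without sip53 replicate 2, so neither comparison has a settled majority direction among these genes. For sip53 it was 0 when siNC replicate 1 or sip53 replicate 1 was left out, 2 for siNC replicate 2, 1 for sip53 replicate 2, and 2 with no brightness filter. It included 1 higher gene with trend and robust moderation, with only the 2 groups fitted, or without either siATM array.

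In the tight junction list, 3 of 31 tested genes (9.68%) rose after siATM and 6 (19.4%) fell, beside 12.5% and 13.0% of all genes tested. PATJ, a scaffold of the Crumbs polarity complex, rose by 0.50 ± 0.06 (limma adjusted p = 0.00188), from 8.32 and 8.29 to 8.86 and 8.75. ILDR2, an angulin of tricellular junctions, fell by 0.50 ± 0.07 (limma adjusted p = 0.0033), from 8.15 on both siNC arrays to 7.66 and 7.64. Both calls held with any 1 array left out. After sip53 none of the 31 rose in the limma fit (2 at unadjusted p below 0.05) and 3 (9.68%) fell. Over all genes 5.47% were higher and 5.11% lower. MARVELD2, which encodes tricellulin, differed by −0.40 (adjusted p = 0.011), CLDN1 by −0.39 (adjusted p = 0.0474) and TJAP1 by −0.28 (adjusted p = 0.0329). Leaving out siNC replicate 1, sip53 replicate 1 or sip53 replicate 2 ended each of these 3 calls. That of TJAP1 was also lost without siNC replicate 2 and with no brightness filter. The CLDN1 call was the least stable, being lost without either siATM array too. It was also lost with no brightness filter, quantile normalization, only the 2 groups fitted or a replicate block. With each array left out in turn, the CLDN1 difference ran from −0.54 to −0.24. MARVELD2 was also lower after siATM (difference −0.21, limma adjusted p = 0.0479). It was named for siATM after its value was seen, and that call was not checked with arrays left out. TJP1, a paralogue of TJP3, differed by 0.04 after siATM and −0.03 after sip53 and was not past the threshold in either.

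Apart from CLDN7, 13 of the claudins were bright enough to test. After siATM 1 was higher and 3 lower, where 12.5% of all genes tested were higher and 13.0% lower. After sip53 none was higher and 1 lower, where 5.47% of all genes were higher and 5.11% lower. Calls in both directions are thus common over all genes, and nothing about the family is read from the split. CLDN15, a pore-forming claudin, rose by 0.46 ± 0.07 after siATM (limma adjusted p = 0.0047), and its sip53 arrays (8.29 and 8.23) lay among the siNC values (8.28 and 8.17). CLDN23 fell after siATM (difference −0.36, adjusted p = 0.0115, up to 0.0609 without either siNC array), as did CLDN2 (−0.30, adjusted p = 0.0228) and CLDN1 (−0.33, adjusted p = 0.0467). CLDN2, and CLDN1 in this comparison, were named after their values were seen. After sip53 CLDN1 alone passed, and it fell. The 13 differences ran from −0.36 to 0.46 after siATM and from −0.39 to 0.17 after sip53. CLDN7 lay outside both ranges, but it was chosen with its differences known, so nothing is read from this.

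**Figure D3:**
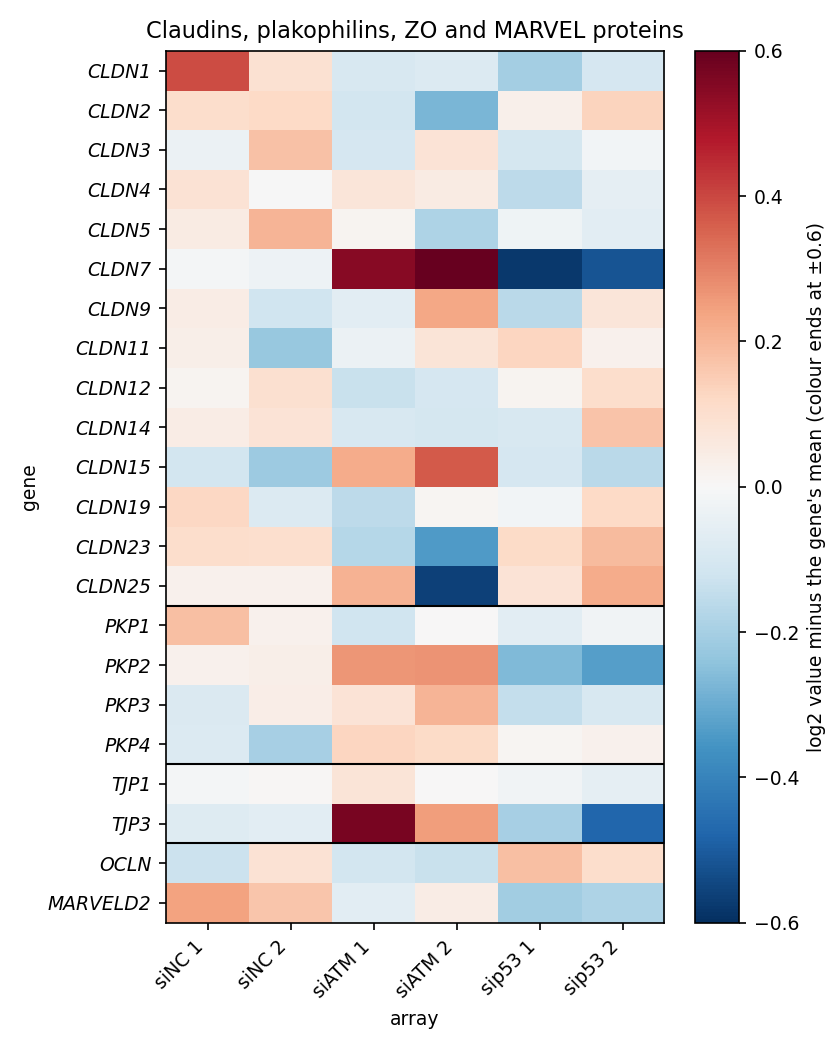
Log2 value minus the gene's own mean over the 6 arrays, on each array, for 22 genes: the 14 tested claudins, 4 plakophilins, TJP1, TJP3, OCLN and MARVELD2; colour runs from −0.6 to 0.6 and values beyond these limits take the end colour. CLDN7, TJP3 and PKP2 change colour between the siATM and sip53 columns, while TJP1 stays pale throughout.

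Of the other desmosomal genes 7 were tested. After siATM 2 (28.6%) rose and none fell, beside 12.5% and 13.0% of all genes tested. After sip53 none rose and 1 (14.3%) fell, beside 5.47% and 5.11%. JUP, which encodes plakoglobin, rose by 0.31 ± 0.07 after siATM (limma adjusted p = 0.0149), and PKP4, a relative of PKP2, rose by 0.26 ± 0.06 (adjusted p = 0.0206). These calls were lost without 2 and 3 of the arrays in turn, with adjusted p up to 0.0917 and 0.119. DSC2, a desmosomal cadherin, fell by 0.42 ± 0.07 after sip53 (adjusted p = 0.0148, up to 0.0914 with an array left out), while desmoplakin (DSP) differed by 0.07 and −0.01. Of the 7 adherens junction genes tested none passed in either comparison with siNC in limma (3 after siATM and 2 after sip53 at unadjusted p below 0.05). CDH1, which encodes E-cadherin, was not analysed here.

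Among the keratins, KRT19 rose by 0.29 ± 0.07 after siATM (limma adjusted p = 0.0178, up to 0.103 with an array left out) and KRT80 fell by 0.46 ± 0.08 (adjusted p = 0.0063). KRT71, a hair follicle keratin, fell by 0.42 (adjusted p = 0.0359). Its siATM mean, 5.86, lay below 5.96, the brightness limit of the fit. It entered the fit only through its siNC and sip53 arrays, with means of 6.28 and 6.09, so its difference is not an exact fold. The KRT71 call was lost without any 1 siNC or siATM array and with no brightness filter. The other 9 of 12 tested keratins did not pass, among them KRT8 (0.21) and KRT18 (0.16), the usual partners of simple epithelia. Thus 1 (8.33%) rose and 2 (16.7%) fell, beside 12.5% and 13.0% of all genes tested. After sip53 none of the 12 passed in limma (1 higher and 1 lower at unadjusted p below 0.05). Over all genes 5.47% were higher and 5.11% lower. KRT7, at 0.28, had the largest difference of the keratins tested. It was chosen with this difference known, so nothing is read from its place.

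In the luminal list, apart from GATA3, AGR2, KRT7 and TSPAN8, 15 genes were tested. With siATM 2 (13.3%) were higher and 2 (13.3%) lower, beside 12.5% and 13.0% of all genes tested. With sip53 none was higher and 2 (13.3%) were lower, beside 5.47% and 5.11%. After siATM TSPAN1 and KRT19 rose and CD24 and SPDEF fell, and after sip53 none rose in limma (1 at unadjusted p below 0.05) and CD24 and TSPAN1 fell. TSPAN1, a tetraspanin like TSPAN8, measured 6.76 and 6.64 after siNC, 7.14 and 7.11 after siATM, and 6.36 and 6.40 after sip53. It thus had the order of CLDN7, with differences of 0.42 ± 0.06 (limma adjusted p = 0.0038) and −0.32 ± 0.06 (adjusted p = 0.0232, up to 0.137 with an array left out). CD24, a mucin-like surface glycoprotein, went from 6.94 and 7.17 after siNC to 6.35 and 6.08 after siATM and to 6.45 and 6.58 after sip53. Its differences were −0.84 ± 0.11 (adjusted p = 0.0024) and −0.54 ± 0.11 (adjusted p = 0.0264, up to 0.137). SPDEF, an ETS-family factor of secretory epithelium, fell by 0.26 after siATM (adjusted p = 0.0165, up to 0.0975 with an array left out).

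The hormone receptors and the pioneer factor that define luminal tumours were dim. ESR1, PGR and FOXA1 averaged 5.73, 4.79 and 5.31 over the 6 arrays, below the 5.96 limit, and were not tested. EPCAM, a pan-epithelial surface protein, averaged 9.02 and differed from siNC by 0.10 and 0.12, and vimentin (VIM), the mesenchymal filament, averaged 11.62 and differed by 0.01 in both. Neither passed the threshold. The word luminal therefore names what GATA3, AGR2, KRT7 and TSPAN8 are known for and not a measured state of these cells.

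**Figure D4:**
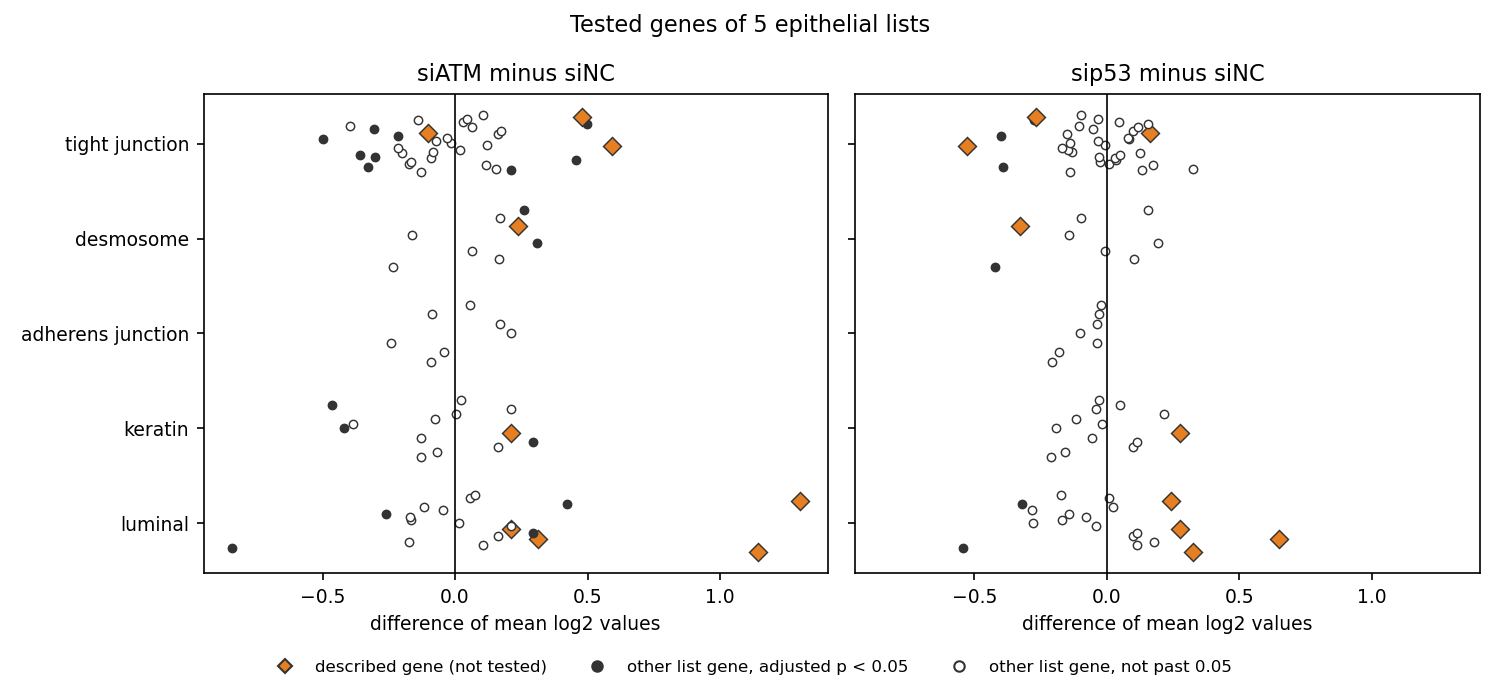
Difference of group mean log2 intensity for every tested gene of 5 epithelial lists, with siATM minus siNC on the left and sip53 minus siNC on the right; orange diamonds are the 8 described genes, filled points passed a limma adjusted p of 0.05 and open points did not, and TJAP1 on the right lies behind the TJP3 diamond. Filled points lie on both sides of 0 after siATM and only below 0 after sip53.

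The protein families of the luminal genes were counted too, and the counts were not tested against the shares over all genes. Those shares were 12.5% higher and 13.0% lower after siATM, and 5.47% higher and 5.11% lower after sip53. Of 23 other tetraspanins tested, 7 (30.4%) rose and 4 (17.4%) fell after siATM. Among them TSPAN2 rose by 0.57 ± 0.14 (limma adjusted p = 0.0249), a call lost without any of 3 arrays and with no brightness filter. TSPAN13 rose by 0.98 ± 0.08 (limma adjusted p = 0.000601), from 7.26 and 7.36 to 8.22 and 8.36, and CD82, a tetraspanin known as a metastasis suppressor, fell by 0.67 ± 0.06 (adjusted p = 0.000669). After sip53 TSPAN13 (0.73) and TSPAN2 (0.68, adjusted p = 0.0275, up to 0.143 with an array left out) rose and TSPAN1 fell. Of 9 other protein disulfide isomerase family genes tested beside AGR2, ERP44 rose after siATM (0.25, adjusted p = 0.0335, lost without any of 5 arrays) and TXNDC15 (−0.49), TMX3 (−0.37) and TMX4 (−0.28) fell. After sip53 TXNDC16 alone rose, by 0.88 ± 0.09 (adjusted p = 0.00262). Of 6 genes tested among the GATA factors and their partners, TRPS1, a GATA-type repressor, rose by 0.60 ± 0.06 after siATM (adjusted p = 0.00113) and GATA6 rose by 0.44 (adjusted p = 0.00197). GATA6 also rose by 0.24 after sip53 (adjusted p = 0.0383), a call lost without any 1 siNC or sip53 array and with array-median centring.

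For each of the 8 genes the tested genes with the most similar profile over the 6 arrays were found by the root mean square (RMS) difference after each gene's own mean was subtracted. CLDN7 was closest to CD22 (RMS 0.0412) and DEPP1 (0.0705), TJP3 to NPEPPS (0.0655) and EID3 (0.0752), and PKP2 to SATB1 (0.0225) and TMEM59 (0.0229). CD22 differed from siNC by 0.68 and −0.47, close to the 0.59 and −0.53 of CLDN7. OCLN was closest to KLHL25 (0.0303) and TMEM237 (0.0339), GATA3 to ZNF429 (0.0478) and MEST (0.0607), and KRT7 to KANSL1 (0.0227) and OFD1 (0.0233). AGR2 was closest to TMEM45A (0.0318) and LGR4 (0.0612), and TSPAN8 to KITLG (0.111) and then AGR2 (0.116). An RMS is small partly because a profile is flat: the standard deviation over the 6 arrays was 0.13 for KRT7 and 0.14 for OCLN, against 0.50 for CLDN7 and 0.63 for TSPAN8.

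The arrays were of like brightness, with medians between 5.95 and 5.98. Over genes, the difference between the 2 replicates had a standard deviation of 0.124 in siNC, 0.148 in siATM and 0.115 in sip53. Of 15 haematopoietic markers 7 were measured, and their mean log2 value was 7.968 to 7.996 after siNC, 8.13 to 8.19 after siATM and 7.82 to 7.85 after sip53, the order of CLDN7. CD14 accounted for the widest of these differences (1.19 and −0.78). Of 10 endothelial markers 8 were measured, with means of 6.54 to 6.57, 6.25 to 6.29 and 6.55 to 6.61. Of 10 fibroblast and pericyte markers 4 were measured, with means of 5.76 to 5.79, 5.88 to 6.04 and 5.91 to 5.94. The part of other cell types in the results was not tested.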

How the data were processed

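RNA of MDA-MB-231 cells was measured on 6 Affymetrix Human Gene 2.0 ST arrays, 2 each for siNC, siATM and sip53. The authors deposited log2 values, between 1.33 and 14.24, for 53617 probe sets; their summarisation, background correction and normalization are not given in the sources used here. All were used without further scaling. The platform annotation gave 16098 probe sets 1 symbol and 37519 none. For each of 14884 genes the probe set with the highest mean was kept. Genes with a mean of 5.96 or more (the median over probe sets) were tested, 10640 in all. limma 3.58.1 (R 4.3.3) fitted 3 group means over all 6 arrays (3 residual degrees of freedom, 7.29 after moderation), with Benjamini-Hochberg adjustment within each comparison; it was tested on simulated data.

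The 8 genes, and the 11 gene lists and 3 marker lists, were chosen with earlier results of these data known. Beside the 8 genes, up to 4 genes past the threshold with the largest difference from each list in each comparison with siNC were named, with fixed landmarks and the 2 nearest profiles per gene. Promoter windows were RefSeq GRCh38.p14. Alternatives were other filters, quantile normalization, median centring, trend and robust moderation, averaged probe sets, fits of 2 groups, a replicate block and leaving out each array.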

Additional observations from a re-analysis of the deposited data

How the results depend on the processing

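No difference of the 8 genes from siNC, and none between the siRNAs, that passed the threshold changed direction under any of 14 alternative fits. Across these fits 308 values moved by less than the spread and 22 by more. Most of the fits could not move a value, since they keep the group means and each gene has 1 probe set. Only quantile normalization, median centring and leaving out an array of a compared group could change a difference. For named list genes, 569 values kept the call and 108 lost it. Leaving out each array in turn, where an arm left with 1 array is assumed to vary like the other groups, gave 1437 to 2226 genes past the threshold for siATM against siNC (2708 with all arrays), 272 to 1242 for sip53 (1126) and 1842 to 2852 for siATM against sip53 (3219). The list genes ranged from 7 to 16, 0 to 6 and 7 to 18, and the 8 genes from 3 to 6, 2 to 6 and 5 to 7. With no filter, 3 of the 8 passed for siATM and 3 for sip53, the list genes came to 2 for sip53 and 11 for siATM against sip53, and 481 genes passed for sip53. Trend and robust moderation gave 1742 genes for sip53. Centring each array on its median turned the sip53 split from 582 higher and 544 lower to 410 higher and 668 lower, while it moved the median of all genes by less than 0.1. TJP3 and TSPAN8 were too dim for the filter at the 70th percentile, 7.22.

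Replicate numbers were shared across groups, but the differences between replicates 1 and 2 correlated by only 0.04 (siNC and siATM), 0.03 (siNC and sip53) and 0.12 (siATM and sip53) over genes, so the numbers were not taken to pair the samples. With the replicate block 2696, 1001 and 3218 genes passed, 16, 5 and 18 of the list genes, and 7, 5 and 6 of the 8 genes. The block ended the call of OCLN in siATM against sip53 and those of CLDN1, GATA6 and ZEB1 in sip53 against siNC. With 2 arrays per group the number of arrays limits the precision.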

Other observations

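Basal and mesenchymal genes were counted beside the epithelial ones. Over all genes tested 12.5% were higher and 13.0% lower after siATM, and 5.47% higher and 5.11% lower after sip53. Of 7 tested genes of the basal and myoepithelial list, NGFR (−0.50, limma adjusted p = 0.00349) and MYLK, the smooth muscle myosin kinase (−0.32, adjusted p = 0.00773), fell after siATM, and none rose in limma (2 at unadjusted p below 0.05). After sip53 SLIT2, a secreted guidance ligand, fell (−0.83 ± 0.09, adjusted p = 0.00309) and the oxytocin receptor OXTR rose (0.49, adjusted p = 0.00671, 0.0563 without sip53 replicate 2). Of 13 tested mesenchymal genes and EMT factors, fibronectin (FN1) rose after siATM (0.43 ± 0.05, adjusted p = 0.00201), as did S100A4 (0.39), SNAI1 (0.30) and THBS1 (0.26). The last 3 calls were lost without 1 or 2 of the arrays. TAGLN fell after siATM (−0.22, adjusted p = 0.0317) and was named for siATM after its value was seen. After sip53 SNAI2 (0.33) and THBS1 (0.23, named after its value was seen) rose and LOX (−0.42), TAGLN (−0.37) and ZEB1 (−0.24) fell. Among these the calls of SNAI2, LOX, TAGLN and ZEB1 were lost when single arrays were left out, that of ZEB1 without any of the 6. The call of THBS1 after sip53 was not checked with arrays left out.

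Of 13 tested genes of the epithelial programme list, 4 (30.8%) rose and 1 (7.69%) fell after siATM, beside 12.5% and 13.0% of all genes. After sip53 1 (7.69%) rose and 1 (7.69%) fell, beside 5.47% and 5.11%. LLGL2, a polarity protein, rose after siATM (0.71 ± 0.07, adjusted p = 0.00085 in limma), from 7.94 and 8.06 to 8.67 and 8.76. C1orf116 (0.79 ± 0.14), CDS1 (0.41) and, named after its value was seen, SH2D3A (0.25) also rose. PRRG4 fell by 1.59 ± 0.06 (3.02-fold, adjusted p = 4.79e-05). After sip53 CDS1, an enzyme of phospholipid synthesis, rose by 0.58 ± 0.06 (adjusted p = 0.00296), and EHF, an epithelial ETS factor, fell by 0.36 (adjusted p = 0.0149, up to 0.112 with an array left out).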
